A study of Mus musculus with 4 samples.

Results

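The genes described here are 10 transcripts, several of which are known as markers of antigen-experienced T cells: 5 S100 genes (S100a4, S100a6, S100a10, S100a11 and S100a13), 2 galectin genes (Lgals1 and Lgals3), the intermediate filament gene Vim, the scaffold gene Ahnak and the LIM-domain gene Crip1. They were chosen by symbol, and all 10 were found among the 32285 genes of the deposited matrices. Counts were unique molecular identifiers (UMIs, 1 per captured transcript molecule), measured by droplet single-cell 3′ RNA sequencing. The cells were CD3+CD4+ T cells sorted from spleens of C57BL6/J mice and stimulated for 6 h with beads carrying anti-CD3 and anti-CD28, which engage the T cell receptor and its co-receptor. There were 4 libraries: 1 female and 1 male labelled Irf5 knockout, and 1 female and 1 male labelled wild type. Irf5 encodes a transcription factor of the interferon regulatory factor family. All 4 libraries were stimulated, so cells that did not respond inside each library stood in for unstimulated cells. The labels do not give the number of mice per library or the knockout allele. The p-values below measure only the spread between these 4 libraries, and edgeR estimates it with information shared across genes.

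S100 proteins are small calcium-binding proteins, many of which act through partners such as annexins and the cytoskeleton. Galectins bind sugar chains on glycoproteins, and galectin-1 and galectin-3 are both made by activated T cells. Memory and regulatory T cells are known to carry more transcript of several of these genes than naive T cells do, and several of them serve as memory markers. Activated T cells are also known to rebuild their cytoskeleton.

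Libraries are given throughout in the order female labelled knockout, female labelled wild type, male labelled knockout, male labelled wild type. They held 6178, 1814, 6543 and 4565 cells with at least 2000 UMIs, at least 500 genes and at most 10% mitochondrial UMIs, with median UMIs per cell of 5104.5, 8416, 6741 and 9661. Of the markers of the sort, Cd3d had a UMI in 75.0% to 90.9% of cells and Cd4 in 20.5% to 36.0%. Of the CD8 genes, Cd8a had one in 0.0438% to 0.165% and Cd8b1 in 4.19% to 6.59%. The targeted gene went against the labels. Irf5 stood at 8.57, 0.94, 9.07 and 1.18 CPM (UMIs of the gene scaled to all UMIs of the same cells), higher in both libraries labelled knockout (log2 difference 2.94 ± 0.18 SE, edgeR adjusted p = 6.0e-07). Every direction between labels below is therefore between libraries as labelled. The share of UMIs in droplets under 200 UMIs, which hold free RNA rather than cells, was 36.2% in the female labelled wild type library against 8.62% to 14.7% in the other 3. Erythroid markers summed to 1574 CPM in the cells of that library outside the 3 classes below, against 25.01 to 49.09 in the other libraries. Pairs of libraries shared 2 to 14 cell barcodes.

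Cells were placed in 4 classes by raw UMIs. Foxp3 cells (Foxp3 encodes the lineage factor of regulatory T cells) numbered 294, 42, 361 and 165. Zbtb16 cells (its product, PLZF, drives innate-like T cells) numbered 81, 27, 106 and 36. Nrn1 cells (a gene of anergic and follicular T cells) numbered 161, 91, 207 and 215, and the other cells 5642, 1654, 5869 and 4149. The other cells were split further. Memory-marker cells had a UMI of any of 8 chemokine, chemokine receptor and IL-18 receptor genes (391, 178, 469 and 358 cells). Naive-like cells had a UMI of any of 4 naive T cell genes, among them Ccr7 and Lef1, and none of those 8, and were called responding at 3 or more UMIs of 10 receptor-induced genes such as Nr4a1, Egr2 and Il2ra (2445, 750, 2476 and 1874 cells), or non-responding at 0 (932, 250, 1106 and 736 cells). These response UMIs were counted after thinning every cell to 2000 UMIs. None of the gates used any of the 10 genes.

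The 5 S100 genes lie on mouse chromosome 3 within 3.05 Mb (GRCm38, all on the + strand). S100a13 lies at chr3:90514435-90524581, S100a4 at chr3:90603771-90606045 and S100a6 at chr3:90612882-90624181, so that S100a6 starts 6.84 kb after S100a4 ends. S100a11 at chr3:93520488-93526287 and S100a10 at chr3:93555080-93564643 form another pair 28.8 kb apart. Vim lies at chr2:13573927-13582826, Crip1 at chr12:113146316-113153879, Lgals3 at chr14:47367751-47386160, Lgals1 at chr15:78926725-78930465 and Ahnak at chr19:8989284-9076914. S100a4 overlaps a predicted gene on the same strand, Gm42674, so its reads may be shared with that gene. The other 9 overlap no annotated gene.

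The 250 bases before the RefSeq start of 8 of the 10 genes were matched in the promoter table (GRCm38.p6). The windows below are those of the neighbours S100a13, S100a4 and S100a6, with S100a11, which holds the AP-1 matches, and Crip1, which stood higher again in strongly responding cells. Capitals mark CCACCC or its complement GGGTGG, a core sequence bound by Krüppel-like factors, and TGANTCA, the AP-1 site.
S100a13, chr3:90514185-90514434, + strand: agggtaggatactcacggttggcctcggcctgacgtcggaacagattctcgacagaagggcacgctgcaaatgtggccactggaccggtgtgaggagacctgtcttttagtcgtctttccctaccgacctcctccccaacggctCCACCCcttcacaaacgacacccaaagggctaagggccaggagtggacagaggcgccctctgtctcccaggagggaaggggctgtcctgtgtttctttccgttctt
S100a4, chr3:90603520-90603769, + strand: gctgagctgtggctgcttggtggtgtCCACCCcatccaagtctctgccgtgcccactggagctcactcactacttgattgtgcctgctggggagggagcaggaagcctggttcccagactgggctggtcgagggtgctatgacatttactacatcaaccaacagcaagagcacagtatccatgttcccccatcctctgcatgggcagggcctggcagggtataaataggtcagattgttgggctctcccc
S100a6, chr3:90612644-90612893, + strand: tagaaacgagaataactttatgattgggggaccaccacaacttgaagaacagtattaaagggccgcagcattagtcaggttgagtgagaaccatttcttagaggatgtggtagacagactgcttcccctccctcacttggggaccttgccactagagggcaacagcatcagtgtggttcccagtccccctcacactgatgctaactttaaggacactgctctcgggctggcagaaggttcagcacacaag
S100a11, chr3:93520246-93520495, + strand: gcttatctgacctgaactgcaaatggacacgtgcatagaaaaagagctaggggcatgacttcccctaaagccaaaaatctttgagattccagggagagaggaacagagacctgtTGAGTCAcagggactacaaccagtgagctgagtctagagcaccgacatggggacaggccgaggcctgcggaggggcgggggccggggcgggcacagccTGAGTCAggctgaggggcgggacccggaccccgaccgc
Crip1, chr12:113151762-113152011, + strand: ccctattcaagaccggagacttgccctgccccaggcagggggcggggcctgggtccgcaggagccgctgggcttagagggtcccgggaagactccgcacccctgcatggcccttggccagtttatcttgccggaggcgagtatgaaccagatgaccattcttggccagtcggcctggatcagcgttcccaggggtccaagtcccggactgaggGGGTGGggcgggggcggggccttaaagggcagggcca
Searched on both strands, CCACCC was present once in S100a4, S100a13, Vim and Crip1, 2 times in Ahnak, and not in the windows of S100a6, S100a11 and Lgals3. The same core was in 28.1% of 32851 promoter windows. TGANTCA was present 2 times in S100a11 and in none of the other 7 windows, against 6.75% of all windows. The core of the interferon-stimulated response element, searched in the same way, was in none of the 8 and in 2.98% of all windows. These are matches of letters and not measured binding sites.

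In Foxp3 cells the intermediate filament gene Vim showed the largest difference of the 10. Vim stood at 247, 150, 195 and 163 CPM in Foxp3 cells, against 15.5, 13.9, 9.08 and 8.14 CPM in the other cells. The lowest Foxp3 value lay far above the highest of the other cells, and the log2 difference was 4.01 ± 0.30 (edgeR adjusted p = 1.21e-09). With each cell thinned to 2000 UMIs, Vim was detected in 29.6%, 19.0%, 22.2% and 24.2% of Foxp3 cells (42.2%, 40.5%, 36.0% and 38.8% unthinned). In responding naive-like cells the thinned shares were 0.450%, 0.533%, 0.283% and 0.587% (1.60%, 1.33%, 1.33% and 1.65% unthinned). Median UMIs were 4474.5, 7033, 5726 and 7501 in Foxp3 cells and 5873, 9547, 7796.5 and 10939.5 in responding cells.

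Ahnak, a very large scaffold protein under the plasma membrane that is linked to calcium signalling, stood at 60.2, 19.1, 76.8 and 51.1 CPM in Foxp3 cells and at 6.95, 6.25, 4.95 and 4.53 CPM in the other cells. The groups did not overlap (log2 difference 3.27 ± 0.30, edgeR adjusted p = 3.53e-08). S100a10, the partner of annexin A2, stood at 257, 217, 222 and 212 CPM against 75.3, 60.9, 71.2 and 79.9. Its Foxp3 values spanned a narrow range in all 4 libraries (1.52 ± 0.16, adjusted p = 1.59e-07). S100a13, which is known for a part in the export of FGF1 and IL-1α, stood at 82.9, 102, 89.5 and 81.5 CPM against 23.2, 20.1, 23.1 and 20.6 (1.84 ± 0.14, adjusted p = 2.35e-09). Again no library of Foxp3 cells reached down to the other cells.

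In edgeR's fit over 8555 genes, 9 of the 10 genes were higher in Foxp3 cells, while 18.7% of all tested genes were. The median log2 difference of the 10 was 2.03 and that of all tested genes 0.01. S100a4, S100a6 and Lgals1 were higher by 2.38 ± 0.62, 2.37 ± 0.51 and 2.21 ± 0.37 on the log2 scale, and S100a11 and Crip1 by 1.38 ± 0.16 and 1.37 ± 0.24. S100a4 had a UMI in only 13, 3, 12 and 6 Foxp3 cells, and the 2 richest held 48.3%, 80%, 48.6% and 54.5% of its UMIs. Lgals3 did not pass (1.22 ± 0.72, adjusted p = 0.201). Its Foxp3 counts were 4, 0, 37 and 12 UMIs, and without the male labelled knockout library the estimate was -0.34. Most of the Lgals3 of the female labelled knockout library came from few cells: 1 cell held 179 of its 384 UMIs. Without cells that had at least 2 UMIs of other-lineage genes, 9 genes were again higher, S100a4 by 3.22 ± 0.42 and S100a6 by 3.44 ± 0.44.

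Annexins, which bind membranes and partner several S100 proteins, were followed beside the 10 genes. Of 6 annexins tested, 5 were higher in Foxp3 cells and none lower, with Anxa4 (2.86 ± 0.47) and Anxa2 (2.81 ± 0.48) at the top. Of 29 cytoskeletal genes, 15 were higher and 3 lower, and the actin-capping gene Capg was higher by 2.35 ± 0.18. Of 9 other LIM-domain genes, 3 were higher and 1 lower. No S100 gene outside the 5 reached the level needed for testing in the class comparisons.

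**Figure D1:**
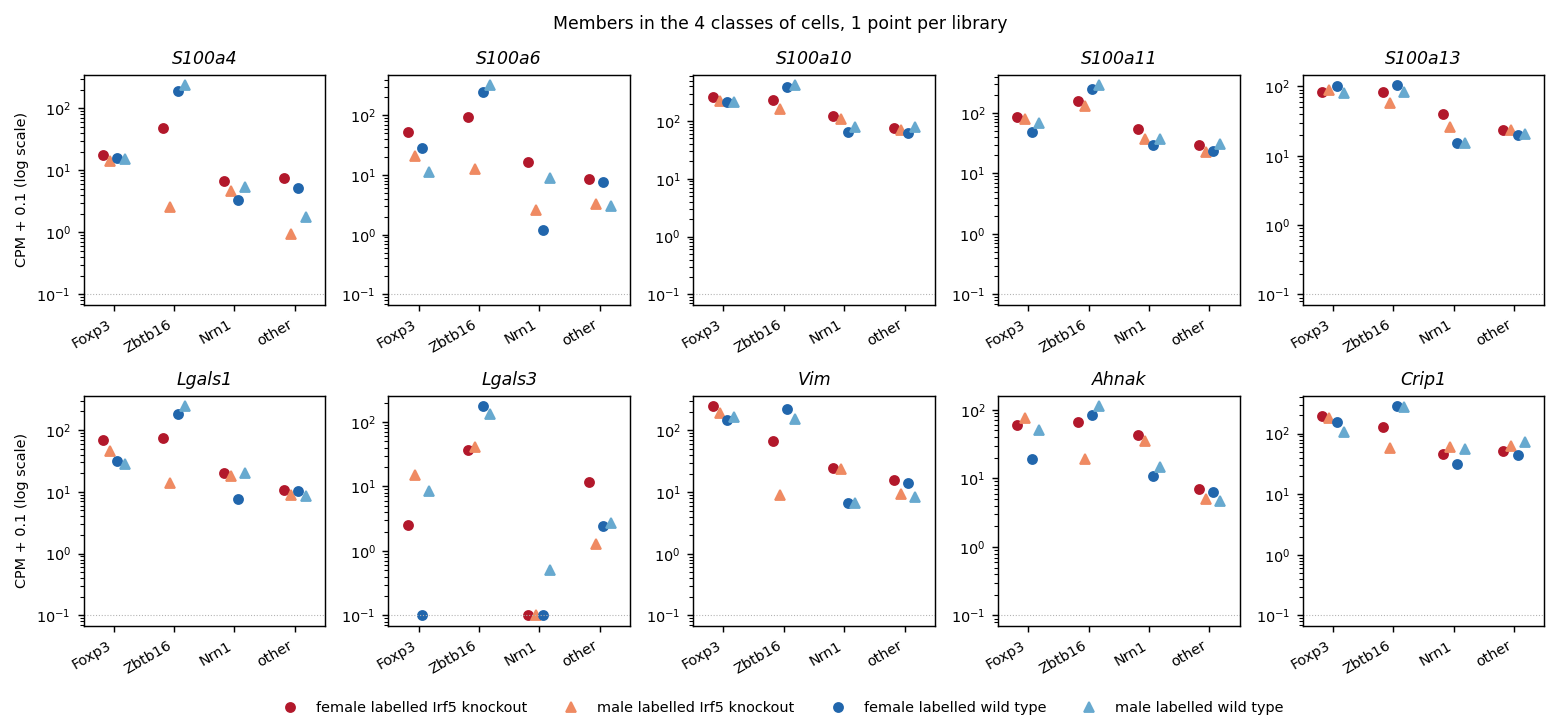
Level (CPM + 0.1, log scale) of each of the 10 genes in Foxp3, Zbtb16, Nrn1 and other cells, with 1 point per library, coloured by genotype label and shaped by sex. Vim in Foxp3 cells lay between 150 and 247 CPM in all libraries, while S100a4 in Zbtb16 cells ranged from 2.52 to 239 CPM.

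Zbtb16 cells had the highest Lgals3 of the 4 classes in every library, and the highest S100a4 and S100a6 in all libraries but the male labelled knockout one. S100a4, a calcium-binding protein that acts on non-muscle myosin, stood at 47.5, 188, 2.52 and 239 CPM in Zbtb16 cells, against 7.40, 5.16, 0.85 and 1.66 CPM in the other cells. The male labelled knockout value of Zbtb16 cells lay below 2 of the other-cell values, so the groups overlapped (log2 difference 4.70 ± 0.59, edgeR adjusted p = 1.48e-06). S100a6 stood at 94.9, 251, 12.6 and 324 CPM against 8.50, 7.49, 3.21 and 2.99, with no overlap (4.60 ± 0.49). Lgals3, galectin-3, was carried by 17, 42, 33 and 52 UMIs, or 36.7, 176, 41.5 and 134 CPM (4.40 ± 0.61, adjusted p = 5.82e-06). Few cells held them: Lgals3 had a UMI in 4, 3, 6 and 3 Zbtb16 cells, and the 2 richest held 88.2%, 97.6%, 81.8% and 98.1% of its UMIs.

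All 10 genes were called higher in Zbtb16 cells, against 20.7% of all tested genes, and the medians were 3.04 and 0.01. S100a11, at 158, 247, 130 and 290 CPM against 29.1, 23.5, 22.3 and 30.3, had the smallest error (2.72 ± 0.18, adjusted p = 1.25e-10). Lgals1, galectin-1, was higher by 3.31 ± 0.43, Ahnak by 3.29 ± 0.43 and Vim by 2.79 ± 0.47. S100a10, S100a13 and Crip1 were higher by 1.78 ± 0.19, 1.64 ± 0.20 and 1.30 ± 0.31. Crip1, a small LIM-domain protein, lost this direction without cells that had other-lineage markers (-0.31 ± 0.29). After thinning, 2 of the 7 genes still testable were called.

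A few Zbtb16 cells with markers of other lineages carried much of this signal. Only 5 of 81, 9 of 27, 5 of 106 and 5 of 36 Zbtb16 cells had at least 2 UMIs of the other-lineage genes. They held 17 of 22, 43 of 45, 0 of 2 and 70 of 93 S100a4 UMIs. A γδ T cell marker was seen in 3, 4, 3 and 3 of these cells, against 6 of 76, 1 of 18, 7 of 101 and 3 of 31 Zbtb16 cells outside the gate. B cell markers were seen in 1, 3, 1 and 3 of them, erythroid markers in 1, 4, 1 and 2, and platelet markers in 2, 2, 0 and 2. Markers of 2 further lists were common outside the gate too. The myeloid list was seen in 3, 8, 4 and 4 of the gated cells and in 27 of 76, 9 of 18, 45 of 101 and 16 of 31 outside it, and NK cell markers in 0, 2, 3 and 1 and in 22 of 76, 8 of 18, 19 of 101 and 5 of 31. The same cells held 58 of 60 and 92 of 126 S100a6 UMIs in the libraries labelled wild type, and 45 of 53 and 36 of 59 Vim UMIs. Lgals3 differed from these genes: the cells with other-lineage markers held 1 of 17, 8 of 42, 0 of 33 and 11 of 52 of its UMIs. Without them, Lgals3 was higher in Zbtb16 cells by 6.37 ± 0.45, S100a11 by 2.48 ± 0.16, Ahnak by 3.26 ± 0.38, S100a4 by 3.93 ± 0.56 and Vim by 1.78 ± 0.52, and 9 of the 10 genes passed. In the fit with these cells, 20.7% of all tested genes were higher.

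**Figure D2:**
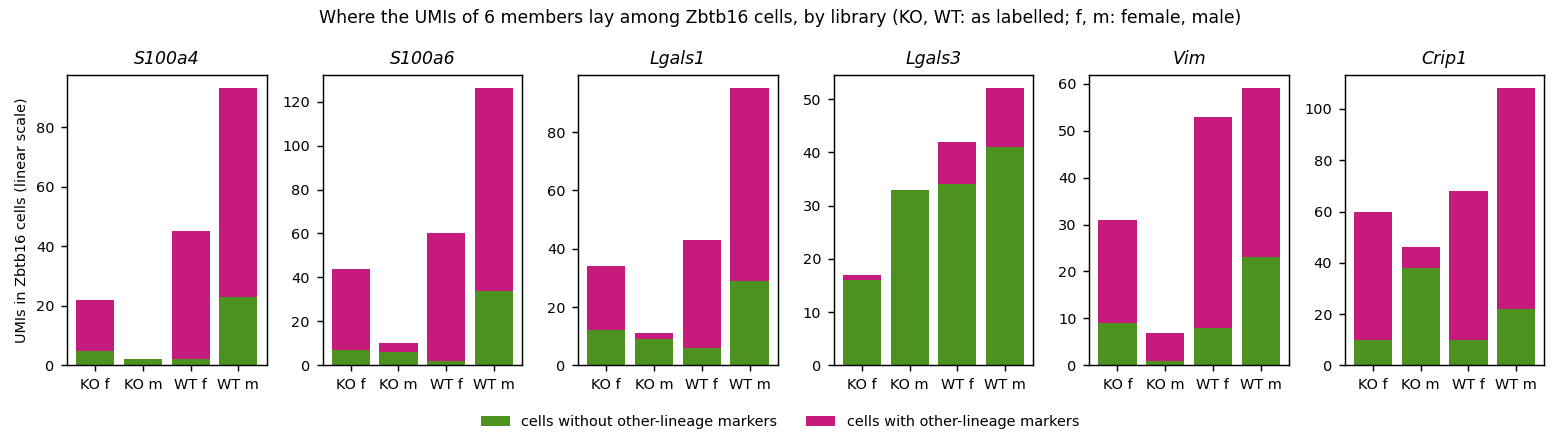
UMIs of 6 of the genes in the Zbtb16 cells of each library (linear scale), stacked as cells without (green) and with (pink) other-lineage markers, with KO and WT as labelled and f and m for female and male. Cells with other-lineage markers hold 43 of 45 S100a4 UMIs in the female labelled wild type library, but 8 of 42 Lgals3 UMIs.

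In Nrn1 cells the scaffold gene Ahnak alone was called. It stood at 43.3, 10.8, 34.6 and 14.5 CPM in Nrn1 cells against 6.95, 6.25, 4.95 and 4.53, with no overlap, and was higher by 2.14 ± 0.35 (edgeR adjusted p = 0.000264). It was 1 of 10 genes called, while 3.93% of all tested genes were higher, and the medians were 0.41 and 0.02. Lgals3 had 0, 0, 0 and 1 UMIs in Nrn1 cells and 363, 34, 51 and 109 in the other cells. Of the 363 in the female labelled knockout library, 327 came from cells with other-lineage markers and 77.4% from 3 cells, so no ratio is given. The call count depended on the other-lineage cells: without them 6 of 10 genes were higher (Ahnak 2.68 ± 0.27, S100a4 1.90 ± 0.51, S100a6 1.76 ± 0.56, Lgals1 1.10 ± 0.29, S100a11 0.76 ± 0.14 and S100a10 0.39 ± 0.13), against 5.09% of all tested genes. Vim, Crip1, S100a13 and Lgals3 did not pass in either fit.

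Within the other cells, the question was which of the genes follow memory and which follow stimulation. Against responding naive-like cells, memory-marker cells had more of all 10 genes, while 31.6% of all tested genes were higher, with medians of 2.71 and 0.03. S100a4 stood at 19.1, 11.4, 6.49 and 13.5 CPM in memory-marker cells, and had 8, 3, 0 and 0 UMIs in responding cells. Pooled over libraries that was 126 against 11 UMIs, a ratio of 70.3 (95% exact interval 38.0 to 144, counting error only). S100a6 stood at 17.7, 6.06, 21.5 and 11.2 CPM against 0.46, 0.41, 0.10 and 0.85, with no overlap (log2 difference 4.84 ± 0.34). Lgals3 was higher by 5.02 ± 0.55, Ahnak by 3.83 ± 0.20, Vim by 2.79 ± 0.19 and S100a13 by 2.63 ± 0.11. S100a11, Lgals1, S100a10 and Crip1 were higher by 2.19 ± 0.13, 1.99 ± 0.21, 1.69 ± 0.08 and 1.60 ± 0.09. Of 5 annexins tested, all were higher (Anxa2 by 3.30 ± 0.28), as were 18 of 31 cytoskeletal genes, with 6 lower.

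Set against non-responding naive-like cells, the 10 genes split. Higher in memory-marker cells were 6 of them, against 31.4% of all tested genes, and lower were 3, against 26.2%, with medians of 0.76 and 0.01. S100a4 had 126 pooled UMIs in memory-marker cells against 2 in non-responding cells (1, 0, 1 and 0), a ratio of 94.0 (25.5 to 785). Lgals3 had 61 against 8 pooled UMIs (log2 difference 3.4 ± 0.61, edgeR adjusted p = 4.0e-05). S100a6 was higher by 3.21 ± 0.37, Ahnak by 2.38 ± 0.22, S100a11 by 0.83 ± 0.13 and Lgals1 by 0.70 ± 0.22. S100a13 stood at 57.8, 39.0, 52.2 and 41.0 CPM in memory-marker cells and at 77.9, 74.4, 72.4 and 72.5 CPM in non-responding naive-like cells. No library overlapped, and S100a13 was lower by 0.67 on the log2 scale (-0.67 ± 0.09). Crip1 (-0.40 ± 0.09, adjusted p = 0.000564) and S100a10 (-0.22 ± 0.07, adjusted p = 0.0138) were lower by less. After thinning Crip1 turned to 0.08 (edgeR adjusted p = 0.677) and S100a10 to 0.32 (adjusted p = 0.0114), so that S100a10 was then called higher in memory-marker cells. Vim did not pass (-0.28 ± 0.16, adjusted p = 0.144).

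**Figure D3:**
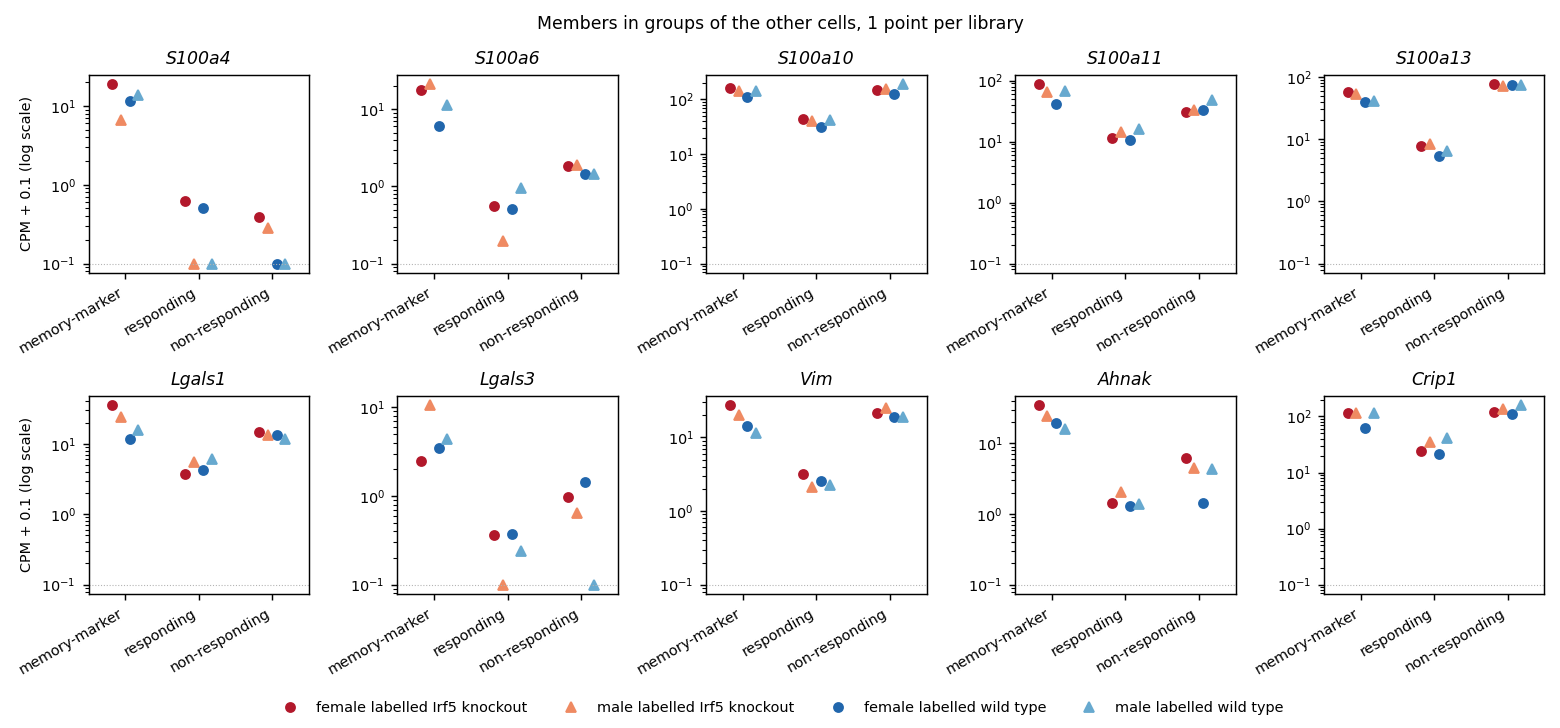
Level (CPM + 0.1, log scale) of the 10 genes in memory-marker, responding naive-like and non-responding naive-like cells, with 1 point per library. S100a4 is at 6.49 to 19.1 CPM in memory-marker cells and at most 0.53 CPM in both naive-like groups, whereas S100a13 is highest in non-responding cells.

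No gene of the 10 was called higher in responding than in non-responding naive-like cells by edgeR or DESeq2, and at an unadjusted p under 0.05 none was higher either, while 39.8% of all tested genes were higher by edgeR. Lower were 8 of the 10, against 41.5% of all tested genes, with medians of -1.63 and -0.03. S100a13 stood at 7.69, 5.16, 8.09 and 6.44 CPM in responding cells against 77.9, 74.4, 72.4 and 72.5 CPM in non-responding cells. These groups were far apart in every library (log2 difference -3.30 ± 0.09, edgeR adjusted p = 3.42e-20). Vim stood at 3.05, 2.44, 2.01 and 2.16 CPM against 21.2, 18.8, 24.9 and 18.6 (-3.07 ± 0.17, adjusted p = 1.43e-14). Crip1 stood at 23.9, 21.3, 35.1 and 42.0 CPM against 119, 111, 137 and 162 (-2.01 ± 0.08). S100a10 stood at 44.4, 31.0, 40.7 and 41.1 CPM against 150, 125, 156 and 195 (-1.91 ± 0.07). None of these 3 overlapped either.

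S100a6 fell by 1.63, Ahnak by 1.46, S100a11 by 1.36 and Lgals1 by 1.29 on the log2 scale, with SEs of 0.53, 0.27, 0.13 and 0.21. S100a4 and Lgals3 had too few UMIs in naive-like cells to be called in either direction: Lgals3 had 4, 2, 0 and 3 UMIs in responding and 3, 2, 3 and 0 in non-responding cells. Depth moved with this comparison. Non-responding cells had median UMIs of 3341, 5558.5, 4498.5 and 6260, against 5873, 9547, 7796.5 and 10939.5 in responding cells. Free RNA, measured once per library, held Vim at 67.8, 32.0, 38.7 and 23.1 CPM and Crip1 at 122, 83.7, 127 and 114 CPM, so that levels in free RNA stood above those in responding cells. The part of depth and of free RNA in the result was not tested. Myeloid markers summed to 282.9, 242.7, 242.1 and 234.8 CPM in non-responding and to 90.8, 70.5, 86.1 and 77.5 CPM in responding cells, while naive T markers summed to 3157 to 3634 and 850.2 to 1054 CPM. Of the 9 listed myeloid genes, 6, 3, 6 and 6 had a UMI in non-responding cells, so part of the list carried that sum. With each cell thinned to 2000 UMIs, S100a13 was detected in 15.1%, 14%, 14.7% and 14.7% of non-responding cells and in 1.92%, 0.933%, 2.02% and 1.65% of responding cells (21.8%, 33.2%, 28.1% and 34.6%, and 4.17%, 4.27%, 5.78% and 6.14%, unthinned).

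Related families were read against the shares of all tested genes in this comparison, 39.8% higher and 41.5% lower. All 5 annexins tested were lower in responding cells (Anxa5 by -1.80 ± 0.12). Of 31 cytoskeletal genes, 11 were higher and 18 lower, with Stmn1, Tuba1a, Lsp1 and Plec lower by 2.27 to 2.43 on the log2 scale. The higher count was near the share of all genes. Other galectins split: Lgals7 (2.19 ± 0.30) and Lgalsl (1.32 ± 0.31) were higher, and Lgals8 (-1.78 ± 0.09) and Lgals9 (-1.29 ± 0.09) were lower. All 16 receptor-induced genes tested were higher, but this list holds the genes that defined the groups.

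Naive-like cells were then split more finely, into 0, 1 to 2, 3 to 5, 6 to 9 and 10 or more response UMIs. This split was added after the data had been seen. From 0 to 3 to 5 response UMIs, all 7 genes tested were lower as a share of all UMIs, against 39.4% of all tested genes. S100a4, S100a6 and Lgals3 were too sparse to test. S100a13 was lower by -3.78 ± 0.12, Vim by -3.75 ± 0.27 and Crip1 by -2.76 ± 0.12. Median UMIs per cell rose between these bins, from 3341, 5558.5, 4498.5 and 6260 to 6479, 10447, 8557 and 11786. Per 100 cells, S100a11 went from 11.3, 19.6, 16.5 and 33.4 UMIs to 8.94, 17.9, 15.6 and 22.3. By the same measure S100a13 went from 28.8, 44.4, 36.3 and 50.4 to 4.05, 1.56, 5.26 and 5.53. The part of depth in these falls was not tested. From 3 to 5 up to 10 or more, 3 of the 7 were higher, against 23.7% of all tested genes, and 2 were lower, against 22.4%. Crip1 stood at 18.1, 13.9, 19.99 and 20.9 CPM at 3 to 5 response UMIs and at 48.4, 34.3, 63.6 and 103 CPM at 10 or more. The groups did not overlap (log2 difference 1.82 ± 0.13, edgeR adjusted p = 7.06e-15), yet every value at 10 or more lay below the lowest at 0, 111 CPM. Vim was higher by 1.69 ± 0.37 (adjusted p = 0.000231) and S100a13 by 1.45 ± 0.17 (adjusted p = 2.03e-09). Vim rested on few UMIs, 12, 1, 19 and 10 at 3 to 5 response UMIs and 20, 6, 16 and 33 at 10 or more.

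S100a10 (-0.47 ± 0.10) and S100a11 (-0.47 ± 0.15) were lower between the same bins, while Ahnak (0.89 ± 0.45) and Lgals1 (0.33 ± 0.23) did not pass. After thinning, 2 of 6 testable genes were called. The bins with 3 to 5 and 10 or more differed in depth, at median UMIs of 6479, 10447, 8557 and 11786 against 4967, 8363, 6745 and 9504. B cell markers summed to 13.7, 13.9, 14.3 and 14.7 CPM in the former and 38.2, 32.5, 29.2 and 21.5 CPM in the latter. Innate-like T markers summed to 129, 140, 148 and 147 CPM against 297, 347, 342 and 343, and anergy-like markers to 70.7, 58.4, 79.4 and 59.3 CPM against 197, 179, 189 and 171. Regulatory T markers summed to 529 to 609 CPM and 798 to 992 CPM. The anergy-like list holds Egr2 and the regulatory T list Il2ra, both among the response genes that defined the bins, so part of those rises was built in. The part of depth or of any of these marker lists in the result was not tested. Of 30 cytoskeletal genes, 18 were higher and 6 lower between these bins, with the nuclear lamina gene Lmna higher by 2.62 ± 0.20, and of 9 other LIM-domain genes 6 were higher and 2 lower.

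**Figure D4:**
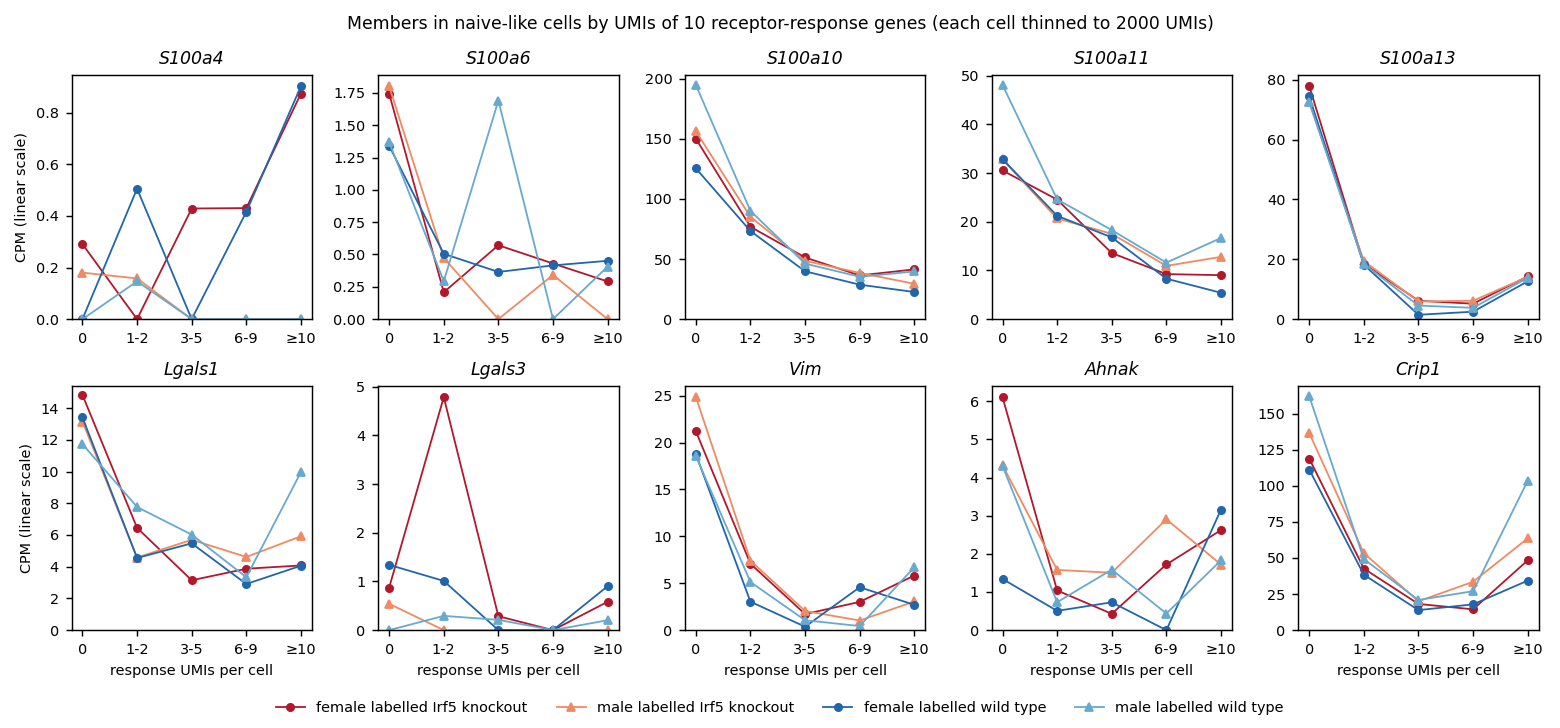
Level (CPM, linear scale, with a separate axis for each gene) of the 10 genes in naive-like cells by the number of response UMIs after thinning to 2000 UMIs, with 1 line per library. S100a13, Vim and Crip1 are highest at 0 in every library, and Crip1 and S100a13 are higher at 10 or more than at 6 to 9, with Crip1 at 34.3 to 103 CPM, while Vim in the female labelled wild type library is not.

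**Figure D5:**
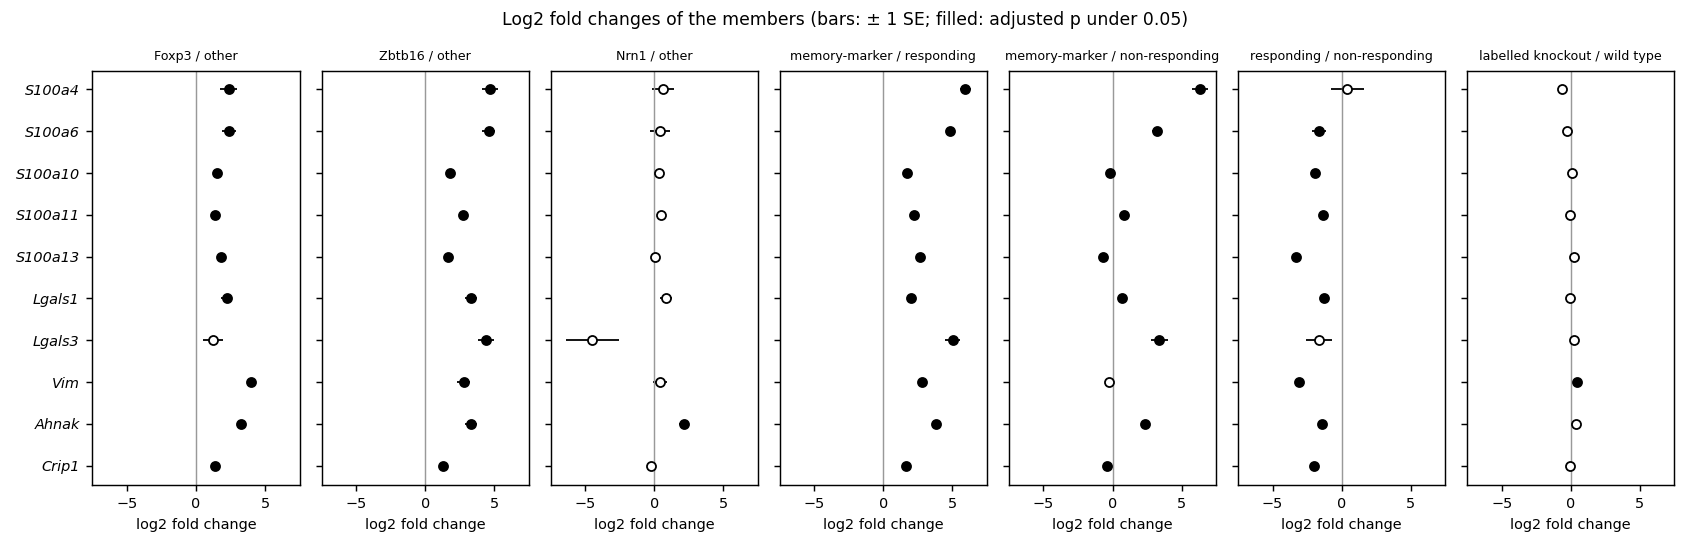
Log2 fold changes of the 10 genes in 7 comparisons with bars of ± 1 SE, where filled points have an edgeR adjusted p under 0.05. All 10 points lie to the right for memory-marker against responding cells, whereas against non-responding cells S100a13, S100a10 and Crip1 lie to the left and are filled, and Vim lies to the left and is not.

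All pairs of the 10 genes were positively correlated. Over 24 sums (6 groups of cells in 4 libraries, which share libraries and depth), S100a6 went with Lgals1 (Pearson r = 0.948 of log2 CPM) and with S100a4 (r = 0.939), and S100a10 went with S100a13 (r = 0.945). S100a11 went with both S100a6 (r = 0.917) and S100a10 (r = 0.902). S100a4 and S100a13, neighbours 79.2 kb apart, had the lowest correlation of any pair (r = 0.525). Within single cells of the other class, S100a4 and S100a6 had r of 0.634, 0.568, 0.478 and 0.408 in the 4 libraries. Outside the 10 genes, the patterns most like S100a4 were those of Fgfr1op2 (r = 0.903), Plxnc1 (0.888) and the IL-18 receptor gene Il18r1 (0.883), the last of which was among the genes that define memory-marker cells. Plxnc1 (0.931) and Maf (0.924) were most like S100a6. The pattern of S100a13 was most like Gnai2 (0.972), Sri (0.966) and Ssh1 (0.961), and that of Vim most like Rabgap1l (0.939) and Capg (0.917). Lgals3 stood nearest to Nedd4 (0.922), Mpp7 (0.911) and Klrk1 (0.905).

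Between genotype labels, over all kept cells, only Vim was called. Vim stood at 27.5, 19.2, 19.2 and 14.1 CPM, so the libraries labelled knockout lay above the library of the same sex labelled wild type, but the male labelled knockout value equalled the female labelled wild type value to 3 digits. The log2 difference was 0.41 ± 0.09 (edgeR adjusted p = 0.0348), and 0.809% of all tested genes were higher. In sums over all cells, more cells with a gene and more RNA per cell cannot be told apart. Foxp3 cells were 5.14% ± 0.54 (SD, n = 2) of cells in libraries labelled knockout and 2.96% ± 0.92 (n = 2) in libraries labelled wild type, with no overlap, where an exact permutation test of 2 against 2 gives p = 0.33, the smallest it can give. Vim was not called with DESeq2, after thinning, with no filter on low genes or with no term for sex. Without cells with other-lineage markers, Vim (0.71 ± 0.11) and Ahnak (0.76 ± 0.14) were both called.

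The labels were then compared inside each class. In Foxp3 cells 0 of 10 genes passed by edgeR (5 at an unadjusted p under 0.05) and 0 by DESeq2 (0 at an unadjusted p under 0.05), with 0.447% of all tested genes called either way. Of all 8269 genes tested there by edgeR, 402 had an unadjusted p under 0.05. In the other cells 0 of 10 passed by either tool, also at an unadjusted p under 0.05, with 1.38% of genes called by edgeR. In Nrn1 cells Ahnak (1.39 ± 0.28, edgeR adjusted p = 0.00152) and Vim (1.76 ± 0.36, adjusted p = 0.00213) were higher in libraries labelled knockout, 2 of 8 tested against 1.51% of all tested genes. Vim stood there at 24.1 and 23.6 CPM in libraries labelled knockout and 6.48 and 6.46 CPM in those labelled wild type. In the female labelled knockout library the cell richest in Vim held 14 of 25 Vim UMIs, and the cell richest in Ahnak 13 of 45 Ahnak UMIs. With DESeq2 neither gene passed, with differences of 1.77 ± 0.82 for Vim and 1.49 ± 0.64 for Ahnak. Neither passed without cells with other-lineage markers, where the sizes were similar (Vim 1.64 ± 0.33, adjusted p = 0.0973, and Ahnak 1.42 ± 0.27, adjusted p = 0.0860). The cells removed held 0 of 25, 0 of 6, 5 of 47 and 0 of 16 Vim UMIs. The fall from non-responding to responding cells was not found to differ by label. By edgeR 0 of 10 genes and 0% of 9857 genes passed, and 2 of the 10 and 452 of the 9857 had an unadjusted p under 0.05. DESeq2 called none of the 10 (0 of the 10 at an unadjusted p under 0.05).

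In Zbtb16 cells 9 of the 10 genes were lower in libraries labelled knockout, against 2.66% of all tested genes, with S100a4 lower by -3.52 ± 0.31 (edgeR adjusted p = 8.67e-26), S100a6 by -2.81 ± 0.25, Vim by -2.65 ± 0.30 and Lgals1 by -2.62 ± 0.28. Lgals3 (-1.97 ± 0.30), Crip1 (-1.76 ± 0.23), Ahnak (-1.50 ± 0.32), S100a10 (-1.14 ± 0.19) and S100a11 (-0.99 ± 0.21) were also called, and S100a13 was not (-0.49 ± 0.30, adjusted p = 0.559). The male libraries differed by more than the female ones for the called genes other than Lgals3, which differed by -1.59 and -2.25. Male and female values were -5.16 and -2.01 for S100a4, -4.28 and -1.48 for S100a6, -3.77 and -1.36 for Lgals1 and -2.34 and -0.42 for Ahnak. These are values of 1 library against 1 and have no test. For each of S100a4, S100a6, Lgals1 and Ahnak the sexes lay further apart than the SE, for which edgeR shares its estimate of spread across genes. Several of these calls rested on few cells. S100a4 had a UMI in 3, 5, 1 and 4 Zbtb16 cells, and the 2 richest cells held 86.4%, 91.1%, 100% and 96.8% of its UMIs. S100a11 was spread over more cells, 33, 12, 49 and 20, and the 2 richest held 23.3%, 39.0%, 16.5% and 57.5% of its UMIs. Without cells with other-lineage markers 0 of 8 genes tested passed by edgeR (5 at an unadjusted p under 0.05), against 0.0212% of all tested genes lower. DESeq2 called 0 of 10 in all Zbtb16 cells (9 at an unadjusted p under 0.05). The difference between Zbtb16 and other cells depended on the label for 6 of the 10 genes, against 0.538% of all tested genes, in an interaction that was added after the data had been seen. That count fell to 3 with DESeq2, with a gate of 2 or more Zbtb16 UMIs or with no library term, to 1 without cells with other-lineage markers and to 0 after thinning.

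Other S100 genes were measurable only in the sums over all cells and over the other cells. S100a8 had 456, 5, 0 and 1 UMIs and S100a9 had 494, 4, 0 and 3, both genes being alarmins of neutrophils and monocytes. EdgeR called both higher by label over all cells (5.02 ± 0.51 and 4.86 ± 0.66), but only the female labelled knockout library was high and the male one had none. Neutrophil markers in the other cells summed to 31.7 CPM in the female labelled knockout library, 1.03 in the female labelled wild type library, 0.024 in the male labelled knockout library and 0.498 in the male labelled wild type library. Their part in the result was not tested.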

How the data were processed

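The authors deposited raw UMI counts per gene and droplet for 4 10x 3′ libraries, made with Cell Ranger 6.0.2 on mm10 per the submitters' processing notes. Every droplet was in the files. Cells with at least 2000 UMIs, at least 500 genes and at most 10% mitochondrial UMIs were kept, and doublets called with Scrublet in scanpy 1.11.5 were removed only as an alternative. No annotation of cells was used, so classes were rebuilt from marker UMIs, and 1 gate gene is not reported here. UMIs were summed per library and class and tested with edgeR 4.0.16 (quasi-likelihood, TMM, filterByExpr, Benjamini-Hochberg over all tested genes, adjusted p under 0.05), in R 4.3.3. The SE of a log2 fold change was its size divided by the square root of F. Class and response comparisons had the library as a term. The genotype label was compared with sex as a term, 2 libraries against 2. CPM values are UMIs scaled to all UMIs of a class, without TMM. Intervals cover counting error only.

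The 10 genes and the lists were chosen with earlier results of these data known. Named genes are the 10, the gate genes, up to 4 called genes of largest change per list and comparison, and the 3 genes of mean CPM at least 10 most like each of the 10. Symbols are from the files, and positions come from GENCODE M21 (99.6% of gene identifiers matched). The fits were tested on simulated data. Alternatives were DESeq2 1.42.0, no filter, no TMM, thinned cells, stricter gates, no library or sex term, each library left out, and cells with other-lineage markers or likely doublets left out.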

Additional observations from a re-analysis of the deposited data

Results flagged for a closer look

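For 6 genes the difference between Zbtb16 cells and other cells itself differed between genotype labels, by an interaction term fitted with edgeR over 16 sums and added after the data had been seen. The difference was smaller in libraries labelled knockout, which carried more Irf5 than those labelled wild type. On the log2 scale the interaction was -3.51 ± 0.77 for S100a4 (adjusted p = 0.0325), -2.89 ± 0.52 for S100a6 (adjusted p = 0.0103), -2.63 ± 0.43 for Vim (adjusted p = 0.00585), -2.52 ± 0.40 for Lgals1 (adjusted p = 0.00585), -1.52 ± 0.35 for Crip1 (adjusted p = 0.0438) and -1.02 ± 0.17 for S100a10 (adjusted p = 0.00685). Both libraries labelled knockout lay below both labelled wild type in Zbtb16 cells for each of the 6. Without cells with other-lineage markers the interaction passed for Vim alone (-3.35). It passed for 3 genes with DESeq2, for 3 with a gate of 2 or more Zbtb16 UMIs, for 3 with no library term and for 0 of 7 tested after thinning. Zbtb16 cells numbered 81 and 106 in libraries labelled knockout and 27 and 36 in those labelled wild type, and a single cell held 35 of 45 and 68 of 93 S100a4 UMIs in the libraries labelled wild type. The same interaction for Foxp3 and for Nrn1 cells passed for 0 of the 10 genes by edgeR (3 and 5 at an unadjusted p under 0.05) and by DESeq2 (1 and 4 at an unadjusted p under 0.05), where edgeR called 4 of 8555 genes in each.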

How the results depend on the processing

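Of 927 values of the 10 genes under other settings, 790 kept their direction and side of the threshold, or moved by less than the SE where no test was possible. A further 83 no longer passed, 4 newly passed, 38 untested values moved by the SE or more and 12 reversed. These values belong to 82 results that were called as reported or are named in the text, so most new calls are not among the 4. The cause was not tested for any of the changes. Reversed values were Lgals3 in Foxp3 against other cells (-0.34 without the male and 2.49 without the female labelled knockout library, the range over libraries left out), Crip1 in Zbtb16 against other cells after thinning (-0.81) and without other-lineage cells (-0.31), and, in memory-marker against non-responding cells, Crip1 (0.080 after thinning), S100a10 and Vim (0.32 and 0.42 after thinning, 0.0093 and 0.025 with response cuts of 1 or fewer and 6 or more UMIs, 0.032 and 0.069 when cells were cut at terciles). S100a4 between labels over all cells was 0.034 within the female and -1.37 within the male libraries. Of the 10 genes, the number called moved by over 1.5 times as follows. It was 2 after thinning for Zbtb16 against other cells (10 as reported). For Nrn1 against other cells (1 as reported) it was 2 with DESeq2, 3 after thinning, 4 with no filter and 6 without other-lineage cells. Between labels over all cells (1) it was 0 with DESeq2, thinning, no filter or no sex term, and 2 without other-lineage cells. In Zbtb16 cells (9) it was 2 at 2 or more Zbtb16 UMIs, 4 with no filter, and 0 with DESeq2, thinning or without other-lineage cells. In Nrn1 cells (2) it was 0 with DESeq2, thinning, no sex term or without other-lineage cells. For 10 or more against 3 to 5 response UMIs (5) it was 2 after thinning. For the interaction of label and class in Zbtb16 cells (6) it was 3 at 2 or more UMIs, 3 with DESeq2, 3 with no library term, 0 after thinning and 1 without other-lineage cells, and it ranged from 3 (without the male labelled knockout library) to 5 with a library left out. Over all genes, the counts of calls that moved by over 1.5 times ran, between labels, from 7 to 375 (155 as reported) over all cells, 1 to 17 (37) in Foxp3 cells, 2 to 113 (201) in Zbtb16 cells, 3 to 280 (178) in Nrn1 cells and 6 to 318 (173) in the other cells, and from 1 to 71 (0) in the label by response fit, and for the interaction of label and class from 1 to 248 (68) in Zbtb16, 1 to 47 (4) in Foxp3 and 0 to 46 (4) in Nrn1 cells. Thinning lowered all calls to 1493 (2913), 1343 (3298) and 318 (779) for Foxp3, Zbtb16 and Nrn1 against other cells, to 2610 (5672) for memory-marker against non-responding cells and to 2174 (4658) between the response bins. With a library left out, calls fell to 1866 for Foxp3 against other cells (without the male labelled knockout library) and to 487 and 406 for Nrn1 (without the female and the male labelled knockout library). Without TMM the median of all genes moved by 0.15 in Foxp3, 0.16 in Zbtb16, 0.16 in memory-marker (against responding) and -0.12 in responding cells, and by 0.11 between labels in Nrn1 cells. Higher and lower calls were then 2259 and 729 (1596 and 1317 with TMM) for Foxp3, 2340 and 1044 (1774 and 1524) for Zbtb16, 471 and 385 (336 and 443) for Nrn1 and 3858 and 1875 (3112 and 2742) for memory-marker against responding cells, and between labels 92 and 23 (104 and 51) over all cells, 120 and 12 (118 and 60) in Nrn1 cells, 19 and 5 (92 and 81) in the other cells and 6 and 50 (22 and 46) for the interaction in Zbtb16 cells, while the number of the 10 genes called stayed the same in each. Leaving out a library from the comparison of labels leaves no residual degree of freedom, so those values are within-sex differences with no test. The label fits pair libraries by sex and the class fits have the library as a replicate block; the labels give no other pairing.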
